A study of Mus musculus with 6 samples.

Results

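The genes described here are the secreted Wnt ligands, their receptors, their antagonists and the proteins that carry the signal to the nucleus, in the lungs of mouse embryos lacking Hopx. Members were taken by symbol: every gene named Wnt, Fzd, Sfrp, Dkk or Rspo with a digit after it, and 19 further symbols named singly, of which all but Tcf7 were measured. They came to 60 of 18193 measured genes, read by 122 of 45037 probe sets (short groups of probes that together report a transcript). Where a gene had several, the probe set brightest on average across the 6 lungs stands for it. The rule also takes in Fzd10os, annotated as a transcript from the strand opposite Fzd10, which encodes no receptor.

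The 3 Hopx-null lungs carried the genotype Hopx -/- and the 3 wild-type lungs Hopx +/+. All were microdissected from embryos at E16.5, in late gestation, on a background that the labels call mixed, and each was hybridised to its own single-channel Affymetrix array after Trizol extraction of total RNA. Hopx is a homeodomain protein without DNA binding of its own, known in the lung as a marker of flat alveolar cells. The labels call the 3 lungs of a genotype biological replicates and do not describe the Hopx allele or say how many embryos a sample holds. Values are log2 expression values, so a difference of 1 is a change of 2-fold.

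Wnt proteins are lipid-modified signals that bind Frizzled receptors together with the co-receptors Lrp5 or Lrp6. Binding stops a cytoplasmic complex built around Axin and Apc from destroying beta-catenin, which then enters the nucleus and acts with Tcf and Lef factors on target genes. In the embryonic mouse lung, Wnt2 and Wnt2b from the mesenchyme are needed to specify the lung, Wnt7b from the epithelium promotes growth of the mesenchyme and vessels, and Wnt5a limits growth of the distal tips. R-spondins, which bind Lgr receptors, raise sensitivity to Wnt by keeping Frizzled receptors at the cell surface.

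The regulatory sequence next to these genes is shown first, for Axin2 because its transcription is a standard readout of Wnt signalling, for Frzb because it differed between the genotypes at the smallest unadjusted p among the members, and for Wnt11 and Dkk1 because the Tcf/Lef core motif was found before their starts. RefSeq windows of assembly GRCm38.p6 matched 38 of the 60 members, 46 windows in all, and the 250 bases before each start were searched for CTTTGAA and CTTTGAT and, on the other strand, TTCAAAG and ATCAAAG. The motif was present in 3 of 46 members' windows (6.52%), those of Wnt5b, Wnt11 and Dkk1, and in 7.48% of the 32851 windows of all genes. The members' windows were richer in G and C, with a median of 66.6% against 52.4% over all windows. The Axin2 window lay at chr11:108920099-108920348 on the plus strand, that of Frzb at chr2:80447397-80447646 on the minus strand, that of Wnt11 at chr7:98834862-98835111 on the plus strand and that of Dkk1 at chr19:30549497-30549746 on the minus strand. Each is written 5′ to 3′ on the strand of its gene, and capitals mark the motif, which begins 51 bases before the start of Wnt11 and 117 bases before that of Dkk1. A match of letters is a description of the sequence, and these windows hold only the last 250 bases before a start.
Axin2: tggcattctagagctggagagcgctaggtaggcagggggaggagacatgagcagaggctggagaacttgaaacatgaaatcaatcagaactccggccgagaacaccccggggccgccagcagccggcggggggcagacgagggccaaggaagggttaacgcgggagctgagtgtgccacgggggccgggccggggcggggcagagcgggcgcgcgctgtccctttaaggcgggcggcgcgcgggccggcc
Frzb: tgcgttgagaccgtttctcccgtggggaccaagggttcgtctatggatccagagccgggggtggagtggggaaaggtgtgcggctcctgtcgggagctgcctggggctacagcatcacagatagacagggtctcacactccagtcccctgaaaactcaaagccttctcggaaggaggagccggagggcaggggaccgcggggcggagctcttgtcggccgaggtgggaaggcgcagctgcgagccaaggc
Wnt11: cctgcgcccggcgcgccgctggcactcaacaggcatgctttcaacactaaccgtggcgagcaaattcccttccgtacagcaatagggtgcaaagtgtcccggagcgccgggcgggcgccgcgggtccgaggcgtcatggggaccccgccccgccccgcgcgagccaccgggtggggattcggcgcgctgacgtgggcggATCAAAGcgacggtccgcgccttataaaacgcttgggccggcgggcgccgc
Dkk1: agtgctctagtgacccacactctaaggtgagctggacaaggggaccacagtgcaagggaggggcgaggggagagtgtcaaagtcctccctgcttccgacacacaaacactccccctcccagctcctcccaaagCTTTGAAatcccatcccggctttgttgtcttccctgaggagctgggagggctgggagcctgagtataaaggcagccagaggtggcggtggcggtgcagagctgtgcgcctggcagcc

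The comparison asks which Wnt pathway transcripts differ when Hopx is absent. The labels do not state the sex of the embryos, but Y-linked genes had signal in wild-type replicates 2 and 3 alone. Sex, as read from these genes, was thus not balanced between the genotypes. A fit with their mean as a covariate sets the Hopx-null lungs against wild-type replicate 1. Both Hopx probe sets fell in the mutants. At the first it read 10.64, 10.35 and 10.47 in Hopx-null lungs, against 12.50, 12.44 and 12.26 in wild-type lungs. At the second it read 4.59, 4.59 and 4.96 in Hopx-null lungs, against 10.96, 10.59 and 10.41 in wild-type lungs. These were the 2 probe sets of 45037 (0.00444%) that passed limma's test with Benjamini-Hochberg adjustment at 0.05.

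None of the 60 Wnt pathway genes passed that test, and their adjusted p-values ran from 0.878 to 0.999 in limma. At an unadjusted p under 0.05 there was 1 member, Frzb, out of 60, against 4.54% of all genes. The log2 differences, Hopx-null minus wild-type, ran from -0.78 for Frzb to 1.13 for Rspo2, with a median of 0.03, against a median of 0.01 over all genes. Of the members, 34 had a difference above 0 and 26 one below 0, and over all genes 52.2% were above 0. Of the 39 members with more than 1 probe set, 25 had differences of 1 sign at all of them and 14 had both signs. Wnt7a, Wnt7b, Sfrp1 and Tcf7l2 were among those with both. The 3 Hopx-null values lay wholly above the 3 wild-type values for Rspo2, Dkk3 and Tcf7l1 (3 of 60, against 6.21% of all genes) and wholly below them for Frzb and Wnt2b (2 of 60, against 4.31% of all genes).

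The intervals of the 2-group fit, taken gene by gene, bound the difference between these groups in whole lung. They take no account of the unequal Y-linked signal, and with it as a covariate 13 of 60 members changed sign. A change within 1 cell type is not bounded by them. The 95% interval of the difference lay between -1 and 1 for 51 of 60 members (85%), against 94.5% of all genes. For those 51 members a change of 2-fold or more in either direction lay outside it. The 9 members with wider intervals were Wnt2, Wnt3a, Wnt7a, Wnt9b, Fzd2, Lgr6, Rspo2, Frzb and Wif1. For 33 of 60 members (55%) the interval lay between -0.5 and 0.5, against 68.9% of all genes. The members also spread more between lungs: the median range over the 6 lungs was 0.54 for the members and 0.40 for all genes. The number of arrays limits this precision.

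**Figure D1:**
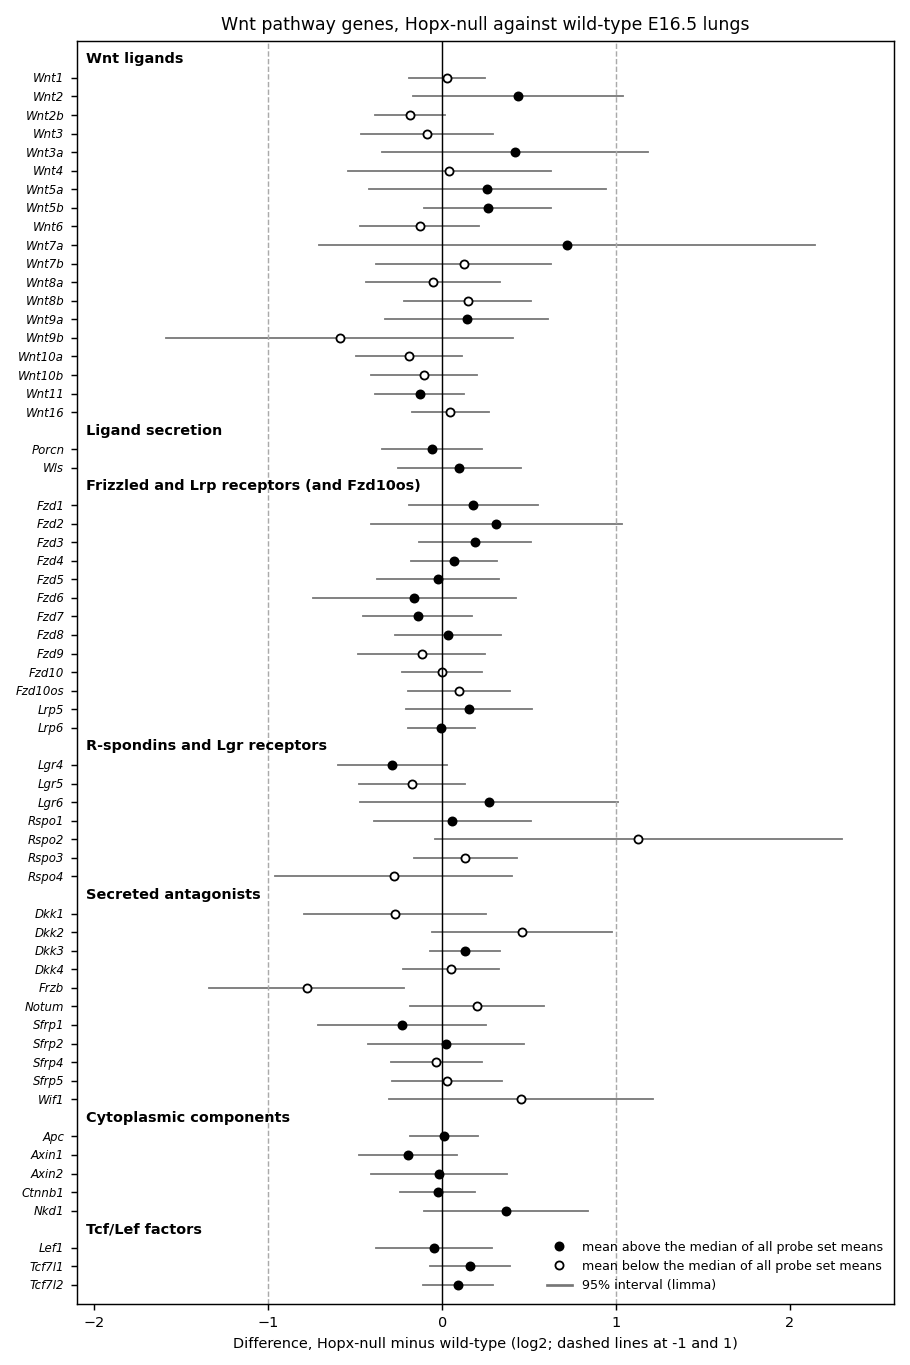
Log2 difference, Hopx-null minus wild-type, for each of the 60 Wnt pathway genes on the x axis, with limma's 95% interval as a line, grouped by role down the page. Filled points mark probe sets whose mean lies above the median of all probe set means and open points those below it. The points run from -0.78 for Frzb to 1.13 for Rspo2, and the only interval that leaves out 0 is that of Frzb.

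Of the 19 Wnt ligands, 12 read below the median of all probe set means (6.69) and 7 of these below the lower quartile (4.29). Those 7 were Wnt1, Wnt3, Wnt8a, Wnt8b, Wnt10a, Wnt10b and Wnt16, the dimmest of the ligands. The 7 ligands above the median were Wnt2, Wnt3a, Wnt5a, Wnt5b, Wnt7a, Wnt9a and Wnt11. Over all genes, 6755 of 18193 lay below that median and 3396 below that quartile. The ligands' differences had a median of 0.04, with 11 above 0 and 8 below.

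Wnt2, the mesenchymal ligand that specifies the lung, read 8.18, 7.75 and 7.44 in Hopx-null lungs, against 7.44, 7.70 and 6.92 in wild-type lungs. The groups overlapped, and wild-type replicate 3 was the lowest of the 6. The log2 difference was 0.43 (SE 0.25, 95% interval -0.17 to 1.04). Without wild-type replicate 3 it was 0.22, and without Hopx-null replicate 1 it was 0.24.

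Wnt2b, which acts with Wnt2 in lung specification, read 4.28, 4.14 and 4.17 in Hopx-null lungs, against 4.42, 4.34 and 4.38 in wild-type lungs. The groups did not overlap, but its single probe set is dim, with a mean close to the lower quartile of all probe set means. Its log2 difference was -0.18 (SE 0.08, 95% interval -0.39 to 0.02, limma adjusted p = 0.878).

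Wnt5a, a ligand of the branch that does not work through beta-catenin, was read by 4 probe sets. At the one used here it read 8.75, 9.85 and 9.62 in Hopx-null lungs, against 9.39, 8.98 and 9.08 in wild-type lungs. Hopx-null lungs held both the lowest and the highest value, and the log2 difference was 0.26 (SE 0.29). It was 0.04 without Hopx-null replicate 2 and 0.59 without Hopx-null replicate 1. All 4 probe sets gave differences above 0, from 0.21 to 0.46. At the 3 other probe sets of Wnt5a the lowest lung was wild-type replicate 3, whereas at the one used here it was Hopx-null replicate 1.

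Wnt7b, the epithelial ligand, read 6.06, 6.23 and 6.33 in Hopx-null lungs, against 6.44, 6.20 and 5.62 in wild-type lungs. Its log2 difference was 0.12 (SE 0.21), and -0.11 without wild-type replicate 3, so its sign rests on that lung. Wnt11, which in the mouse takes part in ureteric branching and heart development, read 6.84, 7.08 and 6.78 in Hopx-null lungs, against 7.10, 6.99 and 7.00 in wild-type lungs, a difference of -0.13 (SE 0.11).

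The widest ligand differences belonged to Wnt7a and Wnt9b, and both rested on wild-type replicate 3. Wnt7a, which in the mouse patterns the limb and the female reproductive tract, read 7.41, 7.43 and 7.32 in Hopx-null lungs, against 7.28, 7.58 and 5.14 in wild-type lungs. Wild-type replicate 3 alone lay far below the other lungs. The log2 difference was 0.72 (SE 0.60), -0.05 without that lung and 1.17 without wild-type replicate 2. Wnt9b, known in the mouse for inducing kidney tubules, read 5.25, 5.12 and 6.005 in Hopx-null lungs, against 5.58, 5.60 and 6.96 in wild-type lungs. Here wild-type replicate 3 was the highest lung. Its log2 difference was -0.59 (SE 0.42), and -0.13 without it.

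Porcn attaches the lipid to Wnt proteins and Wls carries them to the cell surface, so every Wnt ligand passes through them. Porcn averaged 8.79 ± 0.05 in Hopx-null lungs and 8.85 ± 0.21 in wild-type lungs (SD, n = 3 each), a log2 difference of -0.06 (SE 0.12). Wls averaged 10.73 ± 0.12 in Hopx-null lungs and 10.63 ± 0.26 in wild-type lungs (SD, n = 3 each), a log2 difference of 0.10 (SE 0.15). Both groups overlapped for each gene, and both intervals lay between -0.5 and 0.5.

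Among the 13 genes named as receptors, Fzd10os included, 7 had differences above 0 and 6 below, with a median of 0.03. None had groups that did not overlap at the probe set used. The co-receptor Lrp6 was the least variable, at 11.86, 11.85 and 11.78 in Hopx-null lungs, against 11.84, 11.89 and 11.78 in wild-type lungs. Its log2 difference was -0.01 (SE 0.08, 95% interval -0.20 to 0.19). Lrp5 averaged 8.28 ± 0.25 in Hopx-null lungs and 8.12 ± 0.15 in wild-type lungs (SD, n = 3 each), a difference of 0.15 (SE 0.15) that was 0.0077 without Hopx-null replicate 3.

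Fzd2 differed most among the receptors. It read 11.26, 11.38 and 11.40 in Hopx-null lungs, against 11.08, 11.66 and 10.36 in wild-type lungs. Wild-type lungs held both the highest and the lowest value, and the log2 difference was 0.31 (SE 0.30) with all lungs, -0.03 with wild-type replicate 3 left out and 0.63 with wild-type replicate 2 left out. The other probe sets of Fzd2 gave 0.26 (SE 0.13), with groups that did not overlap, and 0.24 (SE 0.18). Fzd3, a receptor used in planar polarity and axon guidance, differed by 0.19 (SE 0.14), and all 6 of its probe sets gave differences above 0, from 0.04 to 0.19. Fzd1 averaged 11.06 ± 0.17 in Hopx-null lungs and 10.88 ± 0.26 in wild-type lungs (SD, n = 3 each), a difference of 0.18 (SE 0.16) that was 0.07 without wild-type replicate 3.

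Fzd4, a receptor that also binds the ligand norrin in blood vessels, was read by 3 probe sets. At the probe set used it read 11.08, 11.15 and 11.10 in Hopx-null lungs, against 11.21, 10.90 and 11.02 in wild-type lungs, a difference of 0.07 (SE 0.10). At a second probe set it read 8.93, 9.08 and 9.07 in Hopx-null lungs, against 8.74, 8.59 and 8.71 in wild-type lungs. The groups did not overlap there, and the log2 difference was 0.35 (SE 0.09, unadjusted p = 0.0071, limma adjusted p = 0.878). At the third, a dim one, the groups did not overlap either, and the difference was 0.28 (SE 0.12). Over all 45037 probe sets, 5.6% lay wholly higher in Hopx-null lungs, as did 6 of the members' 122. These Fzd4 probe sets were singled out after their values were seen. The part of the transcript that each reads is not given in the sources used here.

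R-spondins and Lgr receptors held the member with the widest difference of all. Rspo2, an R-spondin that in the mouse is needed for limb, lung and airway cartilage development, read 6.26, 6.44 and 5.63 in Hopx-null lungs, against 5.55, 5.58 and 3.82 in wild-type lungs. The groups did not overlap, but Hopx-null replicate 3 lay close to wild-type replicates 1 and 2, and wild-type replicate 3 lay far below all others. The log2 difference was 1.13 (SE 0.49, 95% interval -0.04 to 2.30, limma adjusted p = 0.878), and 0.55 without that lung. With the mean of Y-linked genes as a covariate, which had signal in wild-type replicates 2 and 3 alone, it was 0.57. With the mean of cartilage markers, highest in the same lungs, it was 0.73. A second Rspo2 probe set, below the lower quartile, gave -0.04. The other R-spondins gave 0.06 for Rspo1, 0.13 for Rspo3 and -0.28 for Rspo4.

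Lgr4 read 9.05, 8.87 and 8.99 in Hopx-null lungs, against 9.04, 9.24 and 9.49 in wild-type lungs. Only Hopx-null replicate 1 and wild-type replicate 1 overlapped, and the log2 difference was -0.29 (SE 0.13, 95% interval -0.60 to 0.03). It was -0.17 without wild-type replicate 3, -0.16 with the cartilage covariate and -0.07 with the Y-linked covariate. Lgr5, a marker of stem cells in the intestine, averaged 3.61 ± 0.11 in Hopx-null lungs and 3.78 ± 0.20 in wild-type lungs (SD, n = 3 each), below the lower quartile of all probe set means. Lgr6, which in the mouse lung marks smooth muscle cells of the airway, read 8.77, 8.83 and 9.20 in Hopx-null lungs, against 8.32, 9.40 and 8.27 in wild-type lungs. The Hopx-null values all lay between the wild-type extremes, and the difference was 0.27 (SE 0.31). Leaving out wild-type replicate 3 gave 0.07, and leaving out wild-type replicate 2 gave 0.64.

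**Figure D2:**
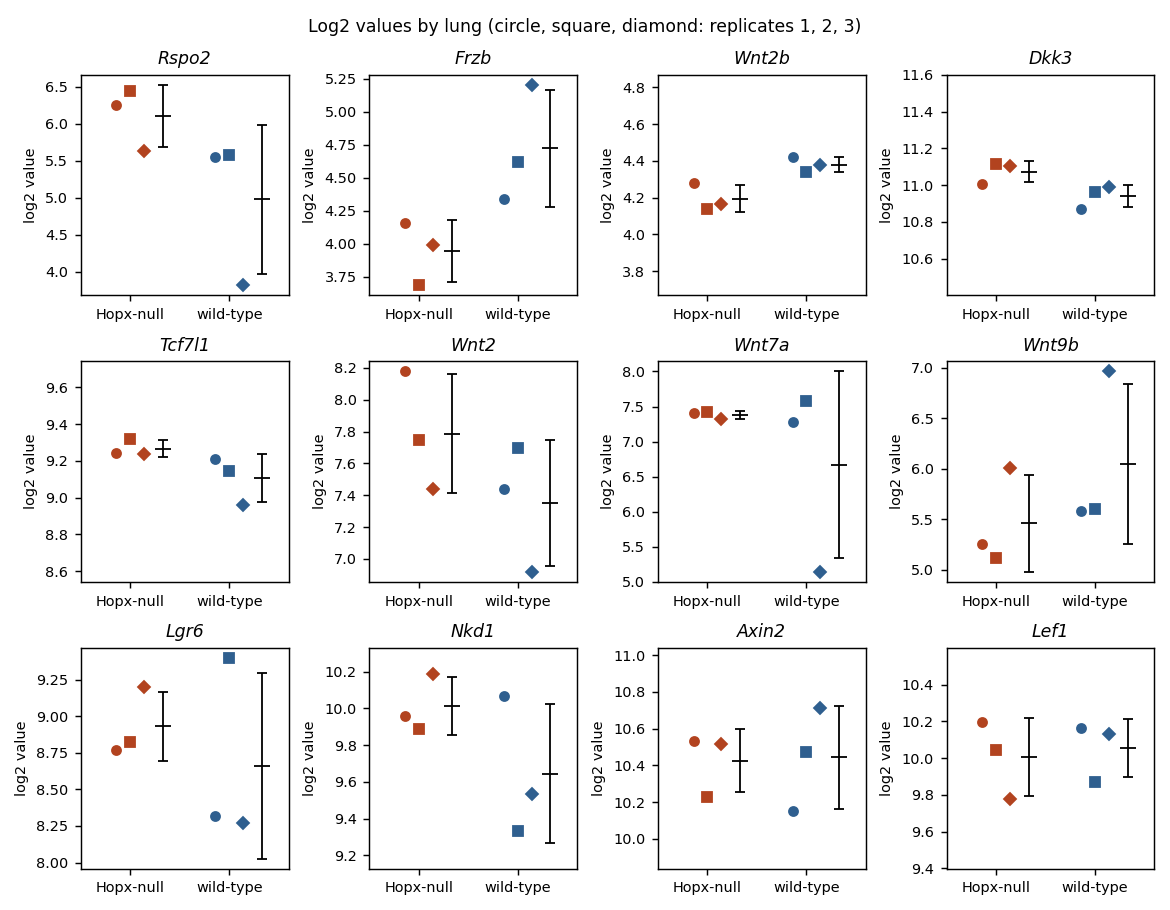
Log2 values on the y axis for 12 Wnt pathway genes, with Hopx-null lungs on the left and wild-type lungs on the right of each panel; circles, squares and diamonds are replicates 1, 2 and 3, and black bars are the mean and SD of 3 lungs. The y axes differ between panels and do not start at 0. Wild-type replicate 3 lies apart from the other lungs for Rspo2, Wnt7a and Wnt9b, and both low Nkd1 values are those of wild-type replicates 2 and 3.

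The 11 genes grouped as secreted antagonists bind Wnt (the Sfrp family, Frzb and Wif1), block Lrp5 and Lrp6 (Dkk1, Dkk2 and Dkk4) or strip the lipid from the ligand (Notum), and Dkk3 is counted with them by its name. Their differences had a median of 0.03, with 7 above 0 and 4 below. Of the 11, 8 read below the median of all probe set means. Those above it were Dkk3, Sfrp1 and Sfrp2 (27.3%, against 62.9% of all genes).

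Frzb, also called Sfrp3, read 4.16, 3.69 and 3.99 in Hopx-null lungs, against 4.34, 4.62 and 5.21 in wild-type lungs. The groups did not overlap. The log2 difference was -0.78 (SE 0.24, 95% interval -1.34 to -0.22, unadjusted p = 0.0138, limma adjusted p = 0.878), and it ranged from -0.97 to -0.54 as each lung was left out. The second Frzb probe set, below the lower quartile, read 2.78, 2.70 and 2.54 in Hopx-null lungs, against 3.04, 2.80 and 3.00 in wild-type lungs, a difference of -0.27 (SE 0.11). Frzb is a gene of developing cartilage, and cartilage markers spread widely between these lungs. The mean of 5 of them (Acan, Col2a1, Col9a1, Col9a3 and Matn1) was 6.08, 4.94 and 6.68 in Hopx-null lungs, against 4.92, 8.26 and 8.53 in wild-type lungs. Wild-type replicate 1 had the lowest cartilage mean, yet its Frzb value lay above those of all 3 Hopx-null lungs. The highest Frzb values fell in the 2 lungs with the most cartilage signal. With the cartilage mean as a covariate the Frzb difference was -0.54, with the mean of the Y-linked genes, also high in these 2 lungs, it was -0.40, and the part of cartilage in it was not tested further. Sox10, the 1 neural marker measured, was likewise highest in wild-type replicates 2 and 3. In whole lung, fewer cells of a type and less RNA in each cell cannot be told apart.

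Dkk3, a Dkk relative that does not block Lrp6, read 11.01, 11.11 and 11.10 in Hopx-null lungs, against 10.87, 10.96 and 10.99 in wild-type lungs. The groups did not overlap, though the nearest lungs almost met, and the difference was 0.13 (SE 0.08). A second probe set gave 0.15 with overlapping groups. Dkk2 read 5.84, 5.64 and 5.65 in Hopx-null lungs, against 4.95, 5.76 and 5.03 in wild-type lungs, a difference of 0.46 (SE 0.22) in which wild-type replicate 2 lay among the Hopx-null lungs. Without that lung it was 0.71.

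Wif1 read 5.82, 6.34 and 6.08 in Hopx-null lungs, against 4.89, 6.08 and 5.91 in wild-type lungs. Wild-type replicate 1 alone lay low, and the log2 difference of 0.45 (SE 0.32) was 0.09 without it and 1.19 with the Y-linked covariate. Sfrp1, which in the mouse is needed for normal distal lung development, averaged 9.68 ± 0.17 in Hopx-null lungs and 9.91 ± 0.39 in wild-type lungs (SD, n = 3 each), a difference of -0.23 (SE 0.20) that became -0.01 on leaving out wild-type replicate 2 and -0.39 on leaving out wild-type replicate 3. The other probe sets of Sfrp1 gave 0.06, -0.23, -0.26 and -0.02. Notum averaged 6.74 ± 0.25 in Hopx-null lungs and 6.54 ± 0.20 in wild-type lungs (SD, n = 3 each).

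Inside the cell, the signal's core parts gave narrow intervals. Ctnnb1, which encodes beta-catenin, read 13.35, 13.32 and 13.16 in Hopx-null lungs, against 13.26, 13.36 and 13.28 in wild-type lungs, a difference of -0.03 (SE 0.09, 95% interval -0.24 to 0.19). Apc, the scaffold of the destruction complex, averaged 10.85 ± 0.02 in Hopx-null lungs and 10.84 ± 0.07 in wild-type lungs (SD, n = 3 each), a difference of 0.01 (SE 0.08). Its 3 other probe sets gave -0.04, -0.11 and -0.47, and at the last of these Hopx-null replicate 3 read 7.91 against 8.82 to 9.19 in the other lungs. That lung also had the highest ratio of 3' to 5' signal of the 6 on the array's RNA quality controls, at 1.51 for actin and 1.72 for Gapdh on the log2 scale, and its part in the Apc value was not tested. Axin1 averaged 7.80 ± 0.20 in Hopx-null lungs and 8.00 ± 0.06 in wild-type lungs (SD, n = 3 each), a difference of -0.20 (SE 0.12).

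Among the transcripts that Wnt signalling itself induces are Axin2, Nkd1, Notum and Lef1, which are not a complete set. Axin2 read 10.53, 10.23 and 10.51 in Hopx-null lungs, against 10.15, 10.47 and 10.71 in wild-type lungs. The groups overlapped throughout, and the difference was -0.02 (SE 0.16, 95% interval -0.41 to 0.37). Lef1 averaged 10.01 ± 0.21 in Hopx-null lungs and 10.05 ± 0.16 in wild-type lungs (SD, n = 3 each), a difference of -0.05 (SE 0.14). The interval of each lay within 0.5 of 0.

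Nkd1, a feedback inhibitor that acts on Dishevelled, read 9.96, 9.89 and 10.19 in Hopx-null lungs, against 10.07, 9.34 and 9.53 in wild-type lungs. Wild-type replicate 1 lay among the Hopx-null lungs and the other wild-type lungs lay below them. Its log2 difference was 0.37 (SE 0.20, 95% interval -0.10 to 0.84), and all 4 probe sets gave differences above 0, from 0.06 to 0.50. At the probe set with the widest difference Nkd1 read 7.96, 7.95 and 7.97 in Hopx-null lungs, against 8.06, 7.16 and 7.16 in wild-type lungs. Wild-type replicates 2 and 3 are also the 2 lungs with signal from Y-linked genes, where the mean of Eif2s3y, Uty and Kdm5d was 9.24 and 9.12, against 2.47 to 2.57 in the other 4. With that mean as a covariate the Nkd1 difference was -0.06 and that of Axin2 was 0.28. No Hopx-null lung carried the Y-linked signal, so that fit sets the Hopx-null lungs against wild-type replicate 1. Wild-type replicates 2 and 3 also had the highest cartilage means, at 8.26 and 8.53. The part of either trait in the Nkd1 values was not tested.

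Of the nuclear factors, Tcf7l1, which represses targets when the signal is absent, read 9.24, 9.32 and 9.24 in Hopx-null lungs, against 9.21, 9.14 and 8.96 in wild-type lungs. The groups did not overlap, though the nearest lungs almost met, and the difference was 0.16 (SE 0.10, 95% interval -0.07 to 0.39). It was 0.09 without wild-type replicate 3. A second Tcf7l1 probe set gave 0.22 with overlapping groups. Tcf7l2 averaged 11.32 ± 0.05 in Hopx-null lungs and 11.23 ± 0.07 in wild-type lungs (SD, n = 3 each), a difference of 0.09 (SE 0.08).

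Many of these values turned on wild-type replicates 2 and 3. Wild-type replicate 3 was the lowest of the 6 lungs for 21 of 60 members (35%), against 24.0% of all genes. Among the 33 members whose mean lay above the median of all probe set means it was lowest for 17 (51.5%), against 28.1% of the 11438 genes above that median. Median deviations from the mean of the other lungs were -0.23 for these 33 members and -0.01 for all genes above the median. Values whose distributions were equalised between arrays cannot show whether an array was dimmer as a whole. Relative to the lowest of the other lungs it stood at -2.14 for Wnt7a, -1.73 for Rspo2, -0.87 for Wnt3a, -0.72 for Fzd2, -0.52 for Wnt2 and -0.44 for Wnt7b, all on the log2 scale. It was the highest lung for 11 members (18.3%, against 21.3% of all genes), among them Wnt9b, Frzb, Lgr4, Axin2 and Porcn. Wild-type replicate 2 was the highest lung for 17 of 60 members (28.3%, against 13.6% of all genes), and for 13 of the 33 above the median (39.4%, against 13.4%). Among the 17 were Wnt7a, Wnt9a, Fzd2, Lgr6 and Rspo1, which were also lowest in wild-type replicate 3.

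**Figure D3:**
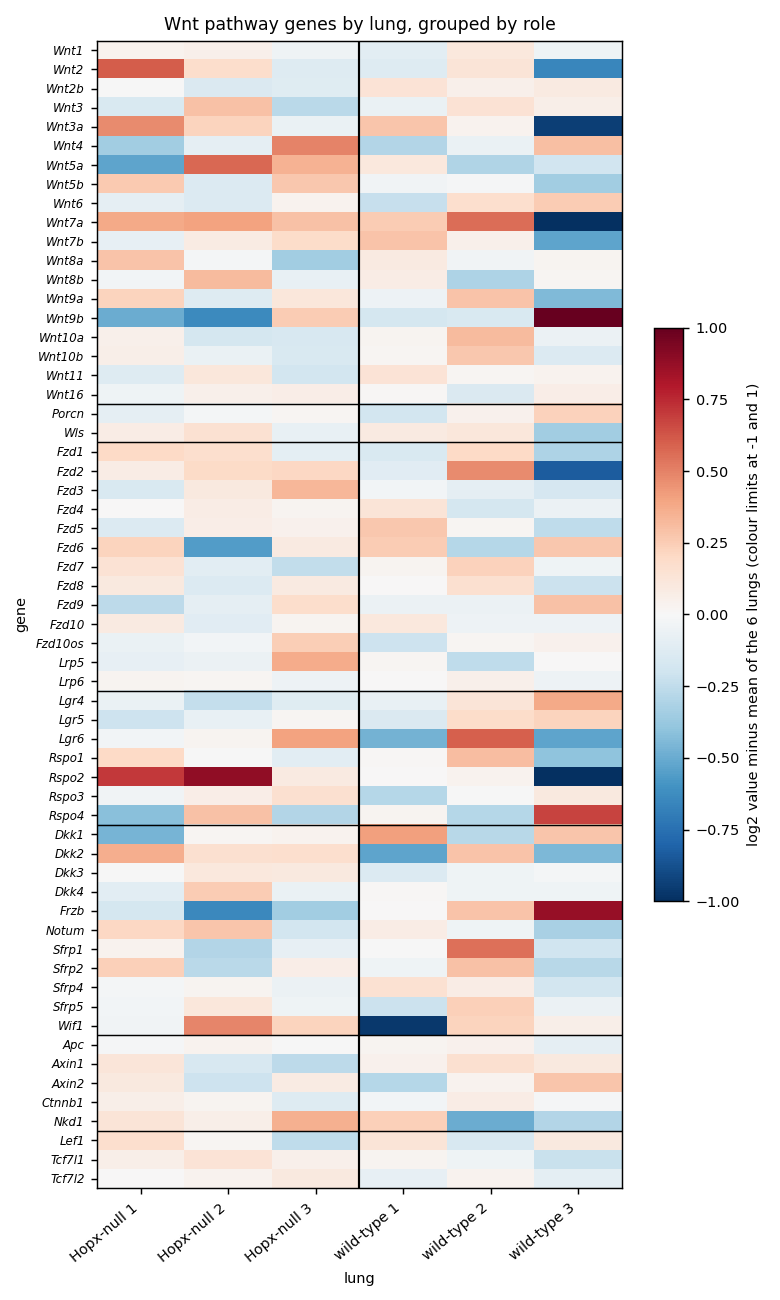
Log2 value of each Wnt pathway gene minus its mean over the 6 lungs, as colour (capped at -1 and 1), with genes down the page by role and the lungs across, the 3 Hopx-null lungs left of the 3 wild-type lungs. Blue cells gather in the wild-type replicate 3 column, with Wnt7a, Rspo2, Wnt3a and Fzd2 among the darkest, and Wnt9b and Frzb are red there.

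The markers of the lung's tissues were read in the same lungs. The mean of the epithelial markers Sftpc, Nkx2-1 and Sftpb was 11.46, 11.37 and 11.48 in Hopx-null lungs, against 11.44, 11.50 and 11.48 in wild-type lungs. The mean of the mesenchymal markers Tbx4, Tbx5 and Foxf1 was 11.31, 11.24 and 11.23 in Hopx-null lungs, against 11.25, 11.10 and 11.25 in wild-type lungs. Mesothelial markers (Wt1, Upk3b and Msln) averaged 9.74, 9.70 and 9.80 in Hopx-null lungs, against 9.58, 10.06 and 9.41 in wild-type lungs, lowest in wild-type replicate 3 and highest in wild-type replicate 2. That order held for each of the 3 mesothelial genes. Myh11 of smooth muscle and Ptprc of blood cells were also lowest in wild-type replicate 3. The other marker of each tissue was not: Acta2 of smooth muscle was lowest in wild-type replicate 1 and Cd68 of blood cells in wild-type replicate 2. The part of these cells in the Wnt values was not tested. Without wild-type replicate 3 the members' median difference was -0.02, with 28 of 60 above 0, compared with 0.03 and 34 of 60 with all lungs.

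**Figure D4:**
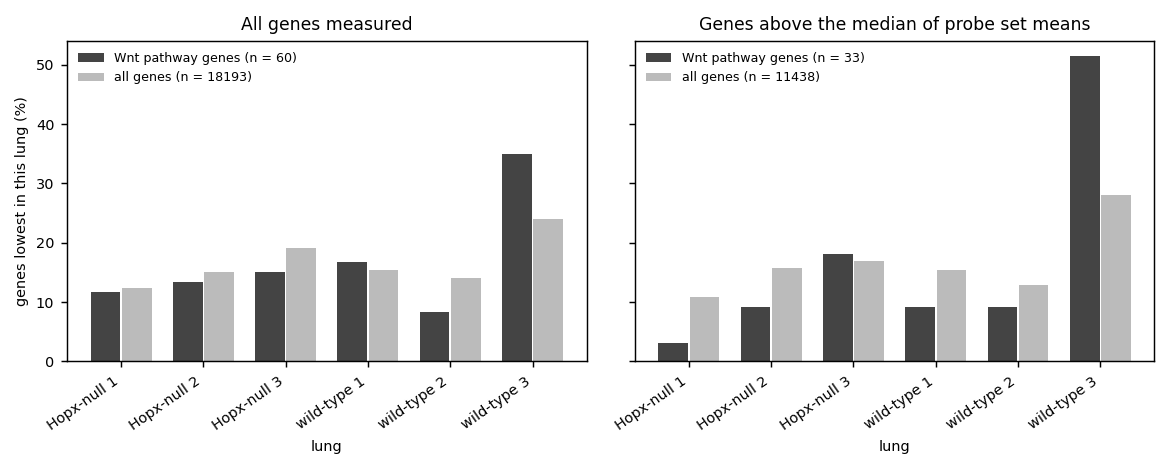
Share of genes, in percent, for which each lung was the lowest of the 6, with dark bars for Wnt pathway genes and pale bars for all genes, over all genes measured (left) and over genes whose mean lies above the median of all probe set means (right). Wild-type replicate 3 was lowest for 35% of Wnt pathway genes on the left and 51.5% on the right, against 24.0% and 28.1% of all genes.

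Several members lie side by side in the genome, in the order of assembly GRCm38.p6: Wnt6 and Wnt10a on chromosome 1, Wnt3a and Wnt9a and likewise Wnt9b and Wnt3 on chromosome 11, and Wnt10b and Wnt1 on chromosome 15. Log2 differences were -0.13 and -0.19 in the first pair, 0.42 and 0.14 in the second, -0.59 and -0.09 in the third and -0.10 and 0.03 in the fourth. Only Wnt3a and Wnt9a were both above the median of all probe set means. Wnt3a read 7.40, 7.15 and 6.86 in Hopx-null lungs, against 7.20, 6.96 and 5.98 in wild-type lungs, and Wnt9a 10.56, 10.21 and 10.45 in Hopx-null lungs, against 10.28, 10.63 and 9.89 in wild-type lungs. Both were lowest in wild-type replicate 3.

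A further list of pathway genes outside the rule, from Dishevelled and Gsk3 to planar polarity proteins, co-repressors and targets, had 67 of 68 entries measured. None passed the test (limma, smallest adjusted p = 0.878), 4 of 67 had an unadjusted p under 0.05 (5.97%, against 4.54% of all genes), and the median log2 difference was 0.01, with 36 above 0 and 31 below. Those furthest above 0 were Pygo1, a partner of beta-catenin, at 0.52 (SE 0.25), Plcb1, a phospholipase, at 0.44 (SE 0.31) and Tle2, a co-repressor of Tcf factors, at 0.37 (SE 0.10). Those furthest below were Sost, a secreted Lrp5 and Lrp6 inhibitor, at -0.49 (SE 0.29), Senp2, which removes SUMO from proteins, at -0.25 (SE 0.13) and Amer1, which tethers Apc to the membrane, at -0.24 (SE 0.10). The 4 with an unadjusted p under 0.05 were Tle2, Amer1, Trabd2b at 0.32 (SE 0.11) and Rnf43 at 0.26 (SE 0.11). The groups did not overlap for these 4, and Amer1 alone was lower in Hopx-null lungs. Over all genes, 6.21% lay wholly higher in Hopx-null lungs and 4.31% wholly lower. The kinase Gsk3b differed by -6.67e-05 (SE 0.08) and Ccnd1, a target among others in the list, by 0.04 (SE 0.12). Myc differed by 0.01 (SE 0.12) and Sp5 by 0.22 (SE 0.14), both with overlapping groups.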

How the data were processed

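Lung samples of 3 Hopx-null and 3 wild-type replicates were compared, 1 array each. The deposited values are log2 expression values. The submitters' processing notes list RMA, which corrects background, equalises array distributions and summarises probes, and Partek 6.6, without saying what each did. No source states the base of the logarithm; base 2 follows from the spread of the values and the use of RMA. Equalised distributions hide any shift of most transcripts in 1 direction.

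Here 64 control probe sets were left out and 45037 tested without a filter, by a 2-group linear model with moderated statistics (lmFit, eBayes) in limma 3.58.1 under R 4.3.3, with Benjamini-Hochberg adjustment over all of them at 0.05. SEs and 95% intervals come from that fit. Gene values used the 34945 probe sets annotated to 1 gene, not the 932 with several or the 9160 with none. The limma steps were tested on simulated data with independent lungs and changes larger than that of any member. Recovery of smaller changes was not tested. Grouping followed the sample titles.

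The members, the lists and the alternatives were chosen with earlier results of these data known, so no test was run over a list. Named genes were every member without overlap between genotypes, the 2 with the widest difference in each role, a fixed set of Wnt genes known in lung or as pathway readouts, and the 3 furthest from 0 each way in the further list. Fzd4, the neighbouring Wnt genes, the other R-spondins and the members lowest or highest in wild-type replicates 2 or 3 were named after their values were seen. So were Gsk3b, Ccnd1, Myc, Sp5, Trabd2b and Rnf43 of the further list. The alternatives were repeated quantile normalization, filters on dim probe sets, a replicate block, array weights, trend and robust options, Y-linked or cartilage expression as a covariate, averaged probe sets, a threshold of 0.1 and each lung left out. Counts of the lowest lung were added after seeing the data.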

Additional observations from a re-analysis of the deposited data

How the results depend on the processing

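None of the 60 Wnt pathway genes passed under any setting run, and their smallest adjusted p in limma was 0.511 or higher in each. Over all probe sets, 2 passed, both of Hopx. The count was 1 with the Y-linked covariate, 1 with the cartilage covariate and ranged from 1 to 23 as each lung was left out. Deviations of same-numbered lungs correlated at -0.10, -0.12 and 0.18, and those of differently numbered lungs at -0.15 to 0.24. Deviations from a mean of 3 lungs are not independent, so these correlations cannot decide whether the replicate numbers pair the lungs. The fit with the replicate block called 1 probe set and no member. Leaving out 1 lung, the members' median log2 difference ranged from -0.02 to 0.04 and the number above 0 from 28 to 36. Above the median of all probe set means 21 members were above 0, because only 33 were tested there. Of 32 named members 20 kept the sign of their difference in every setting run.

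Signs changed as follows. With the Y-linked covariate the values were -0.022 for Apc, 0.28 for Axin2, 0.014 for Ctnnb1, 0.063 for Lgr5, -0.058 for Nkd1, 0.15 for Porcn, -0.041 for Wls and -0.22 for Wnt7b. With the cartilage covariate they were -0.012 for Apc, 0.17 for Axin2, 0.049 for Porcn, -0.0050 for Wls and -0.049 for Wnt7b. Averaged probe sets gave -0.15 for Apc and 0.038 for Lef1. Repeated quantile normalization gave 0.011 for Lrp6. Leaving out 1 lung gave -0.030 to 0.035 for Apc, -0.16 to 0.12 for Axin2, -0.061 to 0.031 for Ctnnb1, -0.025 to 0.63 for Fzd2, -0.14 to 0.067 for Lef1, -0.032 to 0.021 for Lrp6, -0.16 to 0.042 for Porcn, -0.053 to 0.18 for Wls, -0.048 to 1.17 for Wnt7a and -0.11 to 0.30 for Wnt7b. The cause was not tested. Over the settings added after seeing the data, wild-type replicate 3 was the lowest lung for 18 to 24 of the 60 members. The 18 (30%, against 23.8% of all genes) came with averaged probe sets. The 24 (40%, against 27.9% of all genes) came without wild-type replicate 1. With another lung left out, such a count can only stay or rise.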
